A study of Homo sapiens with 16 samples.

Results

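The 10 genes examined here belong to the neural crest programme and were followed through drug withdrawal in a pair of drug-resistant human melanoma lines. They are the transcription factors SOX10, SOX9, SOX2, PAX3, FOXD3, TFAP2A and LEF1 and the receptors EDNRB, KIT and NGFR. They were chosen by gene symbol, and all 10 of them have a row among the 30813 genes of the deposited table of RNA-seq read counts. A375 and 451Lu are established melanoma cell lines, and the cells used here are resistant derivatives of them, named DR A375 and 451Lu BR in the labels. DR A375 cells were on dabrafenib at 0.5 µM together with trametinib at 0.05 µM, and were switched to DMSO for 6, 24 or 48 h. 451Lu BR cells were on dabrafenib at 1 µM and were switched to DMSO for 24, 72 or 120 h. Dabrafenib inhibits the kinase BRAF and trametinib inhibits MEK, the next kinase of the same pathway. The labels describe the resistance of 451Lu as one to both drugs while the treatment notes give dabrafenib alone for it, and the treatment notes are followed here. Each of the 8 groups has 2 libraries. Each line has 1 on-drug group, which serves as the reference for all of its times. The labels leave unsaid whether replicate libraries stem from different cultures. The p-values therefore reflect the spread among these libraries alone, which may be technical.

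The neural crest is the embryonic cell population from which melanocytes, peripheral glia and sensory neurons descend. PAX3, FOXD3, TFAP2A and SOX9 act early in specifying it, SOX10 maintains it and then drives the melanocyte and glial lineages, and SOX2 keeps neural precursors undifferentiated. LEF1 is a DNA-binding partner of beta-catenin that carries WNT signals. EDNRB and KIT are the receptors for endothelins and for stem cell factor, both needed by migrating melanoblasts, and NGFR (CD271) is the neurotrophin receptor used to mark neural crest-like cells.

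Libraries held 9714190 to 16691725 counts, and the members' counts per library ranged from 0 to 10881. The level of a gene is its CPM, its counts relative to a library size adjusted with TMM over all 16 libraries, so it is relative to the other genes. Of the 10 members, 6 had enough counts to be tested in A375 (SOX10, PAX3, TFAP2A, LEF1, EDNRB and NGFR) and 8 in 451Lu (these and SOX9 and KIT). NGFR in both lines, and SOX9 in 451Lu, had 8 or fewer counts in the on-drug group and passed the filter through off-drug libraries, so they had to differ. All 7 melanocyte markers listed had counts in every group except TYRP1 in 451Lu at 120 h. Their summed level went from 4444 to 4552 CPM on drug to between 462.7 and 490.9 CPM at 48 h in A375. In 451Lu it went from 10720 to 11280 CPM on drug to between 777.2 and 888.3 CPM at 120 h. Of 12 markers of other cell types, 8 have a row in the table, and their summed level was 43.84 to 70.86 CPM in A375 and 86.17 to 191.8 CPM in 451Lu. EPCAM, ALB and PTPRC had no counts in 451Lu, and the other 4 markers, CD3E, CDH5 and KRT5 among them, have no row and were not analysed here. The part of these shifts in the members' changes was not tested. In bulk RNA, fewer cells of a kind and less RNA per cell cannot be told apart.

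After withdrawal LEF1 and NGFR rose and TFAP2A fell at every time in both lines. SOX10, EDNRB and KIT fell in 451Lu at every time, and SOX9 rose there from near 0. In A375 SOX10 differed from its on-drug level by 1.14-fold at most and EDNRB ended higher. A gene is called at an adjusted p under 0.05 in edgeR's quasi-likelihood test with Benjamini-Hochberg adjustment over all genes tested. In A375 at 6 h 2 tested members rose and 4 fell, while 35.1% of the 14449 genes tested rose and 38.1% fell. At 24 h in A375 2 members rose and 1 fell (36.2% and 36.3% of all genes), and at 48 h 3 rose and 3 fell (36.6% and 36% of all genes). In 451Lu at 24 h 3 members rose and 4 fell, while 29.2% of the 13851 genes tested rose and 24.9% fell. At 72 h in 451Lu 4 members rose and 4 fell (34.2% and 33.4% of all genes), and at 120 h again 4 rose and 4 fell (37.3% and 36.6% of all genes). So many genes were called in each comparison that these counts say little about the members, and the sizes of their changes are given below. The counts also include NGFR in both lines and SOX9 in 451Lu, whose difference from on drug was built into the filter.

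**Figure D1:**
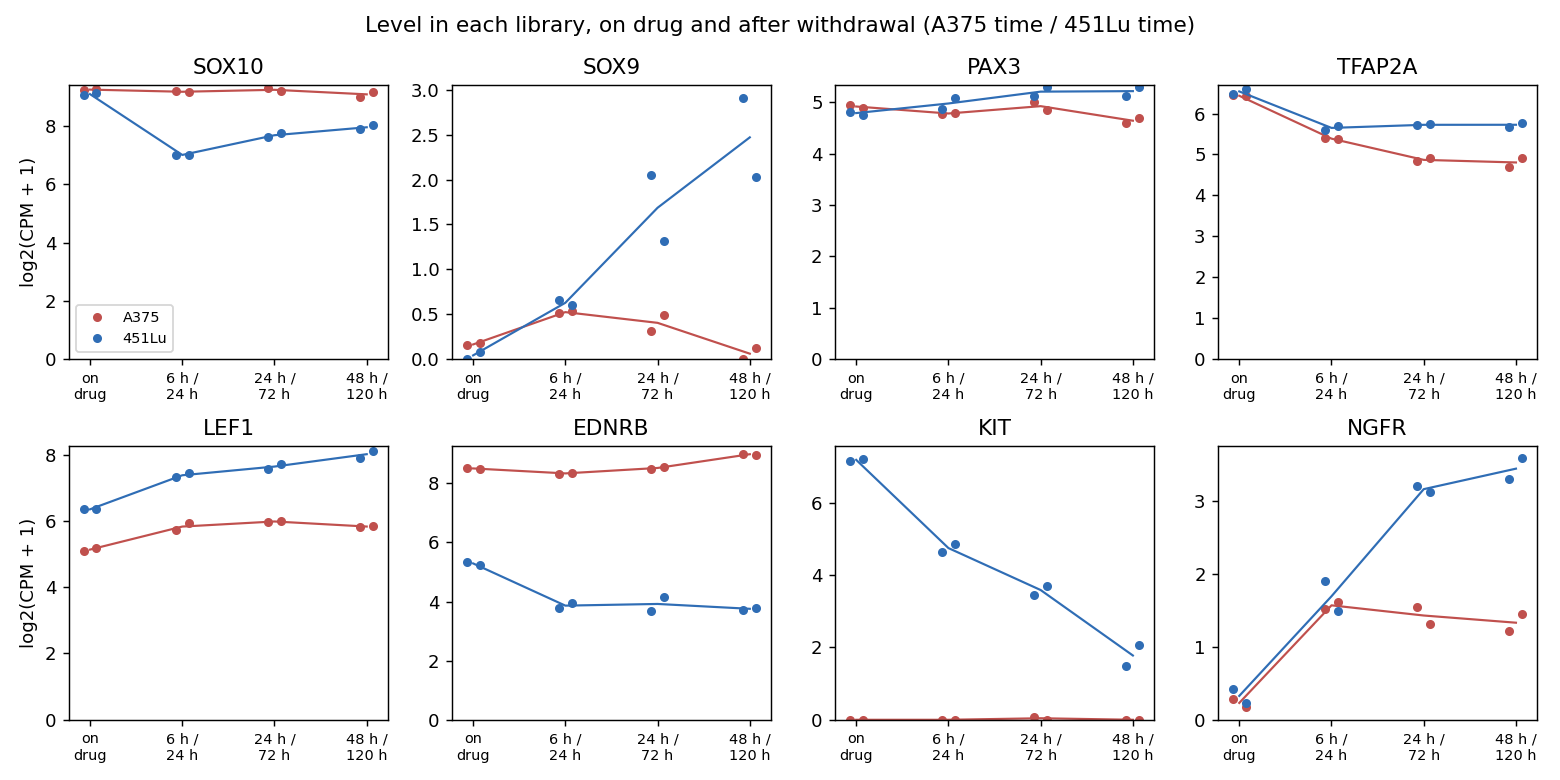
Level of the 8 members with more than a few counts in each library, as log2(CPM + 1), against the time off drug, with A375 in red and 451Lu in blue. Points are the 2 libraries of a group and lines join their means, the horizontal positions are groups and not a time scale, and the vertical scale differs between panels. SOX10 and KIT fall in 451Lu, TFAP2A falls and LEF1 and NGFR rise in both lines, and KIT has 1 count in all 8 A375 libraries together.

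SOX10 (ENSG00000100146, chromosome 22, 37970686 to 37987422 of GRCh38, minus strand) is the factor that marks the melanocyte and glial branches of the crest. In 451Lu its level was 534 and 558 CPM on drug, 129 and 127 CPM at 24 h, 196 and 214 CPM at 72 h, and 237 and 259 CPM at 120 h. The groups did not overlap: the level was lowest at 24 h and then came part of the way back. SOX10 fell 4.19-fold at 24 h (log2 fold change -2.07 ± 0.06 SE, adjusted p = 1.66e-13), and 2.00% of the genes tested had a lower fold change. It was 2.66-fold lower than on drug at 72 h (log2 -1.41, adjusted p = 6.36e-12) and 2.23-fold lower at 120 h (log2 -1.16, adjusted p = 4.38e-11). From 24 to 72 h SOX10 rose by 0.66 on the log2 scale (adjusted p = 4.47e-07), as 1 of 4 members that rose while 1 fell (25.9% of all genes rose and 25.5% fell). The 4 include SOX9, whose rise from 24 h was built into the filter. From 72 to 120 h the fitted difference was 0.26 (adjusted p = 0.00567), among 3 members that rose and 1 that fell (16.6% and 16.1% of all genes). That last call was lost without the first 72 h library (adjusted p = 0.0651) or the second 120 h library (adjusted p = 0.0817).

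In A375 SOX10 was 601 and 615 CPM on drug, 583 and 573 CPM at 6 h, 628 and 584 CPM at 24 h, and 512 and 576 CPM at 48 h. The on-drug and 24 h libraries overlapped, as did those at 6 and 48 h, and all 8 lay in a narrow band. The fitted differences from on drug were -0.11 at 6 h, -0.04 at 24 h and -0.19 at 48 h on the log2 scale, with adjusted p = 0.0335, 0.444 and 0.000462. The call at 6 h was lost with RLE scaling (adjusted p = 0.164) and when any 1 of the 4 libraries was left out (adjusted p from 0.0639 to 0.199). From 24 to 48 h SOX10 differed by -0.15 (adjusted p = 0.013), a call lost without the first library of either time (adjusted p = 0.201 and 0.219). There are 2 genes of the table that overlap SOX10 (POLR2F with 1479 counts and the MIR4534 row with 4717 counts over the 16 libraries, against 93774 for SOX10), and whether counting used strand is not given in the sources used here.

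SOX9 (ENSG00000125398, chromosome 17, 72121020 to 72126420) is the related factor of early crest and cartilage. In 451Lu it had 0 and 1 counts on drug, 8 and 6 at 24 h, 28 and 15 at 72 h, and 76 and 32 at 120 h. Every off-drug library was above both on-drug libraries, and the 72 and 120 h libraries overlapped as CPM only where the lower 120 h value (3.09 CPM) fell below the higher 72 h value (3.15 CPM). The ratio to the 1 on-drug count was 17.5 at 24 h (exact 95% counting interval 2.66 to 738.5), 72.5 at 72 h (12.3 to 2931) and 157 at 120 h (27.5 to 6239). SOX9 passed the filter on low counts only through libraries off drug. A difference from on drug was thus built into its selection, and the tests against on drug are not given. Without the second on-drug library no on-drug count is left, and without the first 120 h library the 120 h level is 3.09 CPM in place of a mean of 4.80 CPM. The fitted log2 difference at 24 h was 3.78, against 3.05 without the first on-drug library and 3.68 without the first 24 h library. The step from 72 to 120 h, 1.07 on the log2 scale, was lost without the first 120 h library (0.41, adjusted p = 0.542) or the second 72 h library (0.59, adjusted p = 0.359). The step from 24 to 72 h was 2.01 on the log2 scale, and 1.40 without the first 72 h library. With 8 and 6 counts, the 24 h libraries lay below the filter's minimum count of 10. SOX9 thus passed through the 72 and 120 h libraries. A rise from 24 h was also built into its selection, and the test of that step is not given. In A375 SOX9 had 0 to 5 counts per library and was not tested. Its level was 0.11 and 0.13 CPM on drug, 0.43 and 0.45 at 6 h, 0.24 and 0.41 at 24 h, and 0 and 0.09 at 48 h.

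SOX2 (ENSG00000181449, chromosome 3) and FOXD3 (ENSG00000187140, chromosome 1) were near the detection limit in both lines. SOX2 had 9 counts in the 2 on-drug A375 libraries and 4, 2 and 3 at 6, 24 and 48 h. In 451Lu SOX2 had 1 count in all 8 libraries together, and the 0 counts on drug allow a level of up to 0.094 CPM. FOXD3 had 7, 5, 6 and 0 counts in the A375 groups in order of time, and 3, 0, 1 and 2 in those of 451Lu. The genes that overlap them had more counts over the 16 libraries than they did, with 55 for SOX2-OT against 19 for SOX2 and 119 for FOXD3-AS1 against 24 for FOXD3, so no level of either can be assigned. Neither was tested.

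PAX3 (ENSG00000135903, chromosome 2, 222199888 to 222298996, minus strand) works upstream of MITF, the regulator of the melanocyte fate. Its highest group mean was 1.23-fold its lowest in A375 and 1.36-fold in 451Lu, the narrowest range of the 8 members tested in 451Lu. In A375 it was 30.0 and 28.6 CPM on drug, 26.4 and 26.8 at 6 h, 31.2 and 27.8 at 24 h, and 23.2 and 24.9 at 48 h. In 451Lu it was 27.3 and 26.2 CPM on drug, 28.2 and 33.1 at 24 h, 33.8 and 38.3 at 72 h, and 34.1 and 38.5 at 120 h. PAX3 was thus lowest at 48 h in A375 and lowest on drug in 451Lu, with no overlap between those groups and any other group of their line. At the last time it was 1.25-fold lower in A375 (log2 -0.32 ± 0.08 SE, adjusted p = 0.00104) and 1.34-fold higher in 451Lu (log2 0.43 ± 0.10 SE, adjusted p = 0.00113). At 72 h in 451Lu the difference was 0.44 (adjusted p = 0.00121), and at 24 h 0.22 (adjusted p = 0.0732, and 0.0269 without the first 24 h library). The A375 difference at 6 h (-0.18, adjusted p = 0.0489) was not called when any 1 of the 4 libraries was left out (adjusted p from 0.0661 to 0.238), with RLE scaling (adjusted p = 0.12) or with no filter on low counts (adjusted p = 0.0643). From 24 to 48 h in A375 PAX3 differed by -0.30 (adjusted p = 0.00735, and 0.16 and 0.0661 without the first library at 24 h and at 48 h).

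TFAP2A (ENSG00000137203, chromosome 6, 10393186 to 10419659, minus strand) opens enhancers in crest and melanocyte cells together with MITF. In A375 it was 86.4 and 84.7 CPM on drug, 41.4 and 40.3 at 6 h, 27.5 and 28.98 at 24 h, and 24.8 and 29.3 at 48 h. In 451Lu it was 88.2 and 96.3 CPM on drug, 47.3 and 51.2 at 24 h, 51.6 and 52.2 at 72 h, and 50.3 and 53.6 at 120 h. All off-drug libraries lay below the on-drug libraries of their line, and in neither line did the 2 last times separate. TFAP2A fell 2.15-fold at 6 h (log2 -1.10 ± 0.07 SE, adjusted p = 7.56e-17) and 3.23-fold at 48 h (log2 -1.69 ± 0.07 SE, adjusted p = 3.03e-21) in A375. Between 6 and 24 h it fell further (log2 -0.54, adjusted p = 2.53e-07), the 1 member that fell in that step while 2 rose (34.2% of all genes fell and 35.5% rose). In 451Lu it fell 1.84-fold at 24 h (log2 -0.88 ± 0.07 SE, adjusted p = 2.9e-08) and stood 1.80-fold below on drug at 120 h (log2 -0.85, adjusted p = 2.1e-08).

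LEF1 (ENSG00000138795, chromosome 4, 108047545 to 108168956, minus strand) rose at every time in both lines. In A375 it was 33.0 and 35.3 CPM on drug, 51.9 and 60.1 at 6 h, 61.9 and 62.6 at 24 h, and 55.7 and 56.1 at 48 h. In 451Lu it was 80.4 and 80.8 CPM on drug, 158 and 172 at 24 h, 188 and 210 at 72 h, and 239 and 277 at 120 h. Off-drug libraries were above on-drug libraries in both lines, and in 451Lu the 4 groups followed each other without overlap. In A375 LEF1 rose 1.60-fold at 6 h (log2 0.68 ± 0.07 SE, adjusted p = 2.14e-10) and was 1.60-fold higher at 48 h (log2 0.68, adjusted p = 1.95e-10). In 451Lu it rose 2.09-fold at 24 h (log2 1.06 ± 0.08 SE, adjusted p = 7.46e-09) and was 3.17-fold higher at 120 h (log2 1.66 ± 0.08 SE, adjusted p = 8.04e-12). The steps within 451Lu were 0.24 from 24 to 72 h (adjusted p = 0.0145) and 0.36 from 72 to 120 h (adjusted p = 0.00177). The first of these was not called without the first 24 h library (0.18, adjusted p = 0.137) or the second 72 h library (0.16, adjusted p = 0.176). The A375 step from 6 to 24 h, 0.16 (adjusted p = 0.0369), was lost without the first 6 h library (0.05, adjusted p = 0.578), without either 24 h library (adjusted p = 0.0724 and 0.0979) and with RLE scaling (adjusted p = 0.0654). LEF1-AS1, which overlaps LEF1, had 638 counts over the 16 libraries against 21707.

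**Figure D2:**
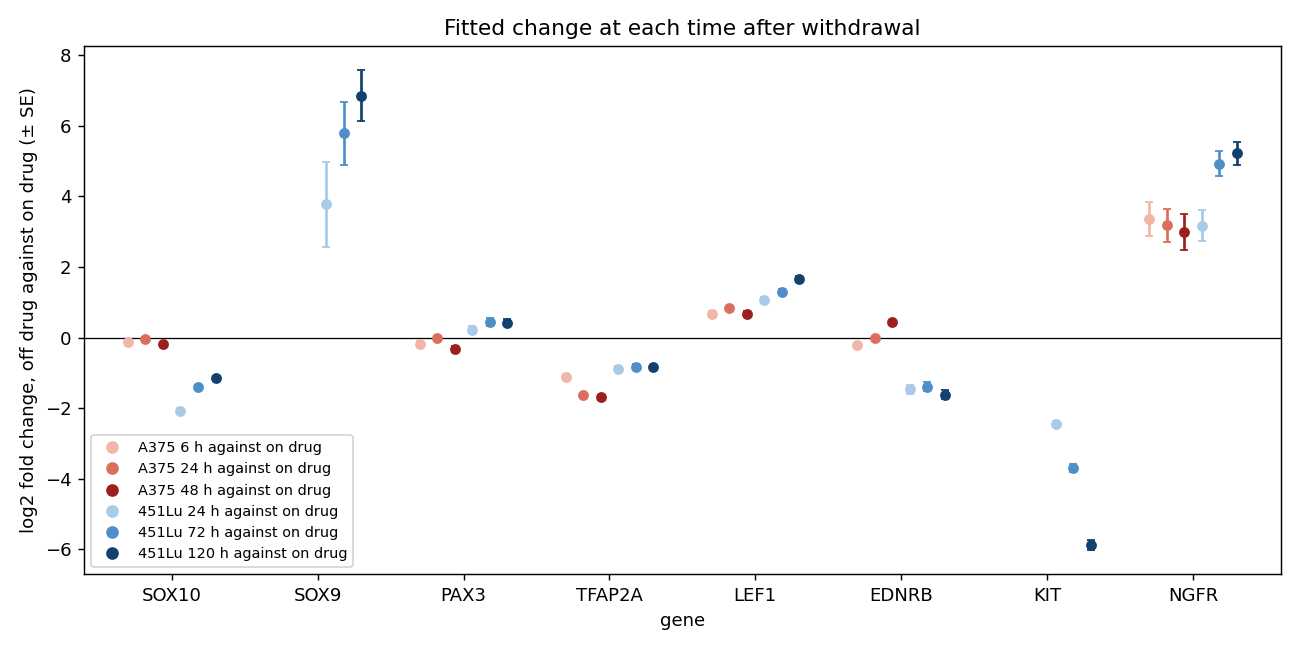
Fitted log2 fold change against on drug ± SE (vertical axis) for each member tested (horizontal axis), with A375 times in reds and 451Lu times in blues. KIT in 451Lu runs from -2.45 to -5.88 and NGFR lies at 3.00 or above in both lines, while SOX10 and EDNRB stand well below 0 in 451Lu and close to it in A375, where SOX9 and KIT were not tested. The SOX9 points rest on 1 on-drug count.

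Among the receptors, EDNRB (ENSG00000136160, chromosome 13, 77895481 to 77919768, minus strand) ended higher than on drug in A375 and lower in 451Lu. In A375 it was 367 and 358 CPM on drug, 321 and 324 at 6 h, 361 and 372 at 24 h, and 514 and 498 at 48 h. In 451Lu it was 39.7 and 36.6 CPM on drug, 12.7 and 14.5 at 24 h, 11.8 and 16.9 at 72 h, and 12.3 and 12.8 at 120 h. In A375 the 48 h libraries were above all others and the 6 h libraries below all others, while in 451Lu the off-drug groups overlapped each other and lay below the on-drug libraries. EDNRB in A375 fell 1.15-fold at 6 h (log2 -0.21 ± 0.04 SE, adjusted p = 6.99e-05) and rose 1.36-fold at 48 h (log2 0.45 ± 0.04 SE, adjusted p = 1.62e-11). The step from 24 to 48 h was 0.47 (adjusted p = 8.59e-11), and EDNRB was the 1 member that rose there while 2 fell (14.2% of all genes rose and 15.7% fell). In 451Lu EDNRB fell 2.76-fold at 24 h (log2 -1.47 ± 0.12 SE, adjusted p = 3.47e-08) and was 3.08-fold lower at 120 h (log2 -1.62 ± 0.13 SE, adjusted p = 5.99e-09).

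KIT (ENSG00000157404, chromosome 4, 54657918 to 54740715, plus strand), the tyrosine kinase receptor that melanoblasts need to survive, showed the largest fall of any member. In 451Lu it was 141 and 147 CPM on drug, 23.8 and 28.0 at 24 h, 10 and 12.1 at 72 h, and 1.80 and 3.19 at 120 h. No groups overlapped, and each later group lay below the one before it. KIT fell 5.48-fold at 24 h (log2 -2.45 ± 0.09 SE, adjusted p = 2.23e-12), 12.9-fold at 72 h (log2 -3.70 ± 0.11 SE, adjusted p = 7.57e-14) and 59.1-fold at 120 h (log2 -5.88 ± 0.14 SE, adjusted p = 2.86e-15). At 120 h 0.664% of the genes tested had a lower fold change. The 120 h level rests on 21 and 33 counts, against 2069 and 2535 on drug. The further falls were 1.24 on the log2 scale from 24 to 72 h (log2 -1.24, adjusted p = 1.46e-06) and 2.19 from 72 to 120 h (log2 -2.19, adjusted p = 1.88e-06). In A375 KIT had 1 count in 8 libraries, and the 0 counts on drug allow up to 0.089 CPM.

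NGFR (ENSG00000064300, chromosome 17, 49495293 to 49515017, plus strand), the neurotrophin receptor, rose in both lines from a low level. In A375 it was 0.221 and 0.128 CPM on drug, 1.88 and 2.06 at 6 h, 1.93 and 1.47 at 24 h, and 1.32 and 1.73 at 48 h. In 451Lu it was 0.341 and 0.174 CPM on drug, 2.73 and 1.80 at 24 h, 8.21 and 7.69 at 72 h, and 8.83 and 11.01 at 120 h. The 3 off-drug groups of A375 overlapped their neighbours in level, and those of 451Lu rose one above the other without overlap. NGFR was 10.3-fold higher at 6 h in A375 (log2 3.36 ± 0.48 SE) and 8.02-fold higher at 48 h (log2 3.00 ± 0.51 SE). In 451Lu it was 9.03-fold higher at 24 h (log2 3.17 ± 0.44 SE) and 37.5-fold higher at 120 h (log2 5.23 ± 0.33 SE). From 24 to 72 h the rise was 1.76 (adjusted p = 1.34e-05), and from 72 to 120 h the difference was 0.30 (adjusted p = 0.251). The folds against on drug rest on 6 on-drug counts in A375 and 8 in 451Lu. NGFR passed the filter on low counts through libraries off drug. A difference from on drug was thus built into its selection, and the tests against on drug are not given.

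The promoters of EDNRB, KIT and TFAP2A are shown because these 3 members fell in 451Lu. They come from the RefSeq promoter table (GRCh38.p14), which holds 7 of the 10 members and not SOX10, SOX9 or NGFR. Each sequence runs 5′ to 3′ on the strand of the gene and ends at the base before the gene's start in the deposited table. For EDNRB and KIT the RefSeq start lies downstream of that base, and the exon bases between them are left out. It covers chr13:77919769-77919932 (minus strand) for EDNRB, chr4:54657707-54657917 (plus strand) for KIT and chr6:10419660-10419909 (minus strand) for TFAP2A. Capitals mark a match to a MITF E-box, CATGTG or CACGTG on either strand.
EDNRB: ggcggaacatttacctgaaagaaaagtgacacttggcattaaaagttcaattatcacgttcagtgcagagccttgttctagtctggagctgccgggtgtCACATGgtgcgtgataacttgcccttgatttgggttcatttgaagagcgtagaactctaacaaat
KIT: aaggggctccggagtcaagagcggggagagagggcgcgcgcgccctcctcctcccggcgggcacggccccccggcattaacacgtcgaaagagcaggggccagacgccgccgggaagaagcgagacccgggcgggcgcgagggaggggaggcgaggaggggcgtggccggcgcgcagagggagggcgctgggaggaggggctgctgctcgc
TFAP2A: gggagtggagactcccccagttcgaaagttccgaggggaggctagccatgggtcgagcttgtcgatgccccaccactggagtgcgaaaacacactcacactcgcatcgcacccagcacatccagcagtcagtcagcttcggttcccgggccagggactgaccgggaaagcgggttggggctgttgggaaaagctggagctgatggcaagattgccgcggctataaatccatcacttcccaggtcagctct
In the 250 bases before a RefSeq start, which for EDNRB and KIT run past the bases printed, an E-box was in 3 of the 7 member promoters (EDNRB, SOX2 and FOXD3) and in 15.2% of 35116 promoter windows. The EDNRB match, CACATG on the gene's strand, is in the bases printed. A SOX site (ACAAAG or ACAATG) was in 2 member promoters (SOX2 and FOXD3) and in 21.2% of windows, and a TFAP2 palindrome (GCCNNNGGC) was in 2 (SOX2 and EDNRB) and in 19.8% of windows. No member window held an AP-1 site (TGANTCA, in 6.57% of windows) or a LEF/TCF site (TCAAAG, in 11.2% of windows). Both strands were searched for each motif. CACGTG reads the same on both strands. The EDNRB TFAP2 match lies in another EDNRB window, which is not printed. A member was counted when any of its windows held the motif, while the share is over single windows. A match is a run of letters in the window and was not tested for binding.

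Per kilobase of exon, SOX10 was the highest member on drug in both lines, with 164 CPM per kb in A375 and 147 in 451Lu. In A375 EDNRB followed at 64.6 CPM per kb, then TFAP2A at 10.3, LEF1 at 6.37 and PAX3 at 3.69. In 451Lu KIT came second at 25.9 CPM per kb, then LEF1 at 15, TFAP2A at 11.2, EDNRB at 6.81 and PAX3 at 3.37. At 120 h LEF1 had moved up to second in 451Lu at 48.1 CPM per kb, behind SOX10 at 66.8, and KIT had come down to 0.448, below NGFR at 2.39 and SOX9 at 1.22. At 48 h in A375 the order was SOX10 at 147 CPM per kb, EDNRB at 90.3, LEF1 at 10.4, TFAP2A at 3.27 and PAX3 at 3.02.

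On drug the lines differed in KIT, EDNRB and LEF1. Of the 8 members in the joint fit of all 16 libraries, 2 were higher and 2 lower in 451Lu, while 39.3% of 15481 genes were higher and 37.9% lower. KIT had 4604 counts in the 2 on-drug 451Lu libraries and 0 in those of A375, which makes it at least 1620-fold higher in 451Lu against a floor of 3 counts over the group. EDNRB was 9.51-fold lower in 451Lu (log2 -3.25 ± 0.07 SE, adjusted p = 1.02e-23) and LEF1 2.36-fold higher (log2 1.24 ± 0.08 SE, adjusted p = 2.02e-13). SOX10 was called 1.11-fold lower (log2 -0.16, adjusted p = 0.0158), a call lost without the second A375 library (adjusted p = 0.0966) or the first 451Lu library (adjusted p = 0.149). For PAX3, TFAP2A, NGFR and SOX9 the fitted differences were -0.14, 0.11, 0.47 and -1.65, with adjusted p from 0.11 to 0.565. Line and drug treatment cannot be told apart in this comparison.

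The time shared by both lines is 24 h, and there the change itself was compared between them. It differed for 3 of 8 members, 1 with a higher and 2 with a lower change in 451Lu (22% and 27.4% of all genes). SOX10 changed by -2.07 in 451Lu and -0.04 in A375 (difference -2.09 ± 0.08 SE, adjusted p = 1.04e-16). EDNRB changed by -1.47 and -0.02 (difference -1.51 ± 0.11 SE, adjusted p = 3.08e-11). TFAP2A fell in both, by -0.88 in 451Lu and -1.64 in A375 (difference 0.69 ± 0.10 SE, adjusted p = 2.36e-06). The differences for LEF1 (0.17 ± 0.11 SE, adjusted p = 0.219), PAX3 (0.18 ± 0.13 SE, adjusted p = 0.268) and NGFR (-0.07 ± 0.63 SE, adjusted p = 0.984) did not pass the threshold. SOX9 (2.43 ± 1.67 SE, adjusted p = 0.243) rests on few counts, and KIT, with 0 counts on drug in A375, gives no usable difference.

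**Figure D3:**
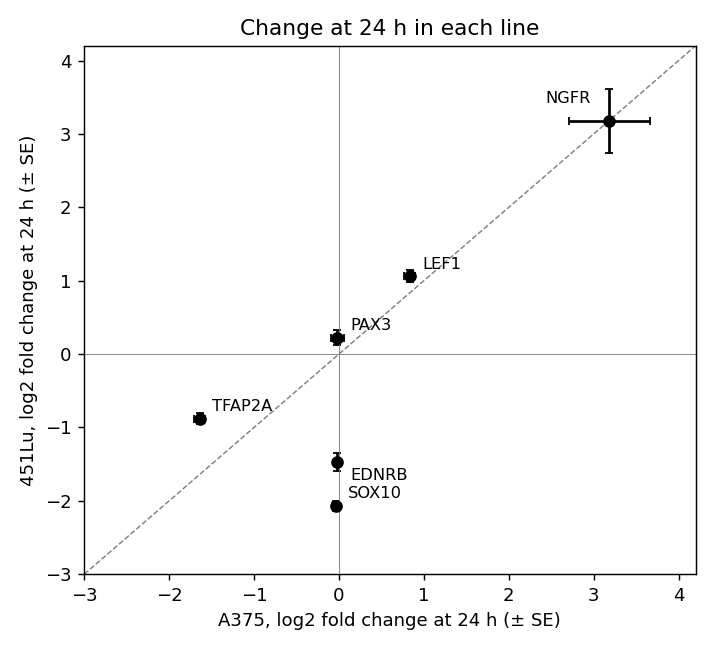
Log2 fold change at 24 h against on drug ± SE in A375 (horizontal axis) and 451Lu (vertical axis) for the 6 members tested in both lines, where the dashed line marks equal change. SOX10 and EDNRB lie far below the dashed line at an A375 change near 0, TFAP2A lies above it, and NGFR, LEF1 and PAX3 lie within their errors or close to it.

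The ligand and signalling partners of KIT were read from a list of 10 genes. KITLG, which encodes stem cell factor, was 10.5 and 9.81 CPM on drug in A375, 20.3 and 22.0 at 6 h, 3.56 and 5.08 at 24 h, and 3.79 and 3.11 at 48 h. In 451Lu KITLG was 2.86 and 2.56 CPM on drug, 8.26 and 6.78 at 24 h, 10.5 and 10.98 at 72 h, and 11.8 and 12.3 at 120 h. So it ended 3.02-fold lower in A375 (log2 -1.59 ± 0.17 SE, adjusted p = 5.25e-10) after a rise at 6 h (log2 1.02, adjusted p = 1.06e-09), and 4.39-fold higher in 451Lu (log2 2.13 ± 0.17 SE, adjusted p = 7.71e-09), the line whose KIT fell. The change of KITLG at 24 h differed between the lines by 2.75 (adjusted p = 5.73e-10). Of the list, 3 of 9 tested genes rose and 6 fell at 48 h in A375 (36.6% and 36% of all genes, median log2 -0.39, against 0.00 over all genes). In 451Lu 7 of 10 rose and 3 fell at 120 h (37.3% and 36.6% of all genes, median 0.89, against 0.00). SH2B3, an inhibitory adaptor of cytokine and KIT signalling, rose 7.67-fold in A375 and 7.36-fold in 451Lu. CBL, a ubiquitin ligase that removes active receptors, rose 2.68-fold and 2.31-fold, and GAB2, a docking protein, fell 1.42-fold and 3.17-fold.

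Of the endothelin genes, ECE1, the enzyme that cleaves endothelin precursors, rose along with time in both lines. It was 64.4 and 63.1 CPM on drug and 112 and 117 at 48 h in A375, and 108 and 109 on drug and 1021 and 931 at 120 h in 451Lu. The rise was 1.76-fold in A375 (log2 0.81 ± 0.06 SE, adjusted p = 5.2e-15) and 8.88-fold in 451Lu (log2 3.15 ± 0.10 SE, adjusted p = 5.03e-14), with no overlap of the groups. Of 5 endothelin genes tested in A375 2 rose and 1 fell at 48 h (36.6% and 36% of all genes, median -0.07, against 0.00). The fall was that of GNA11, a G protein subunit that endothelin receptors use (log2 -0.50). In 451Lu 2 of 4 rose and 0 fell at 120 h (37.3% and 36.6% of all genes, median 0.30, against 0.00). ECE2, called higher at the last time in both, was not called without the second on-drug library (adjusted p = 0.154 in A375 and 0.0856 in 451Lu) or the second library of the last time (adjusted p = 0.422 and 0.0862).

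Beside NGFR, SORT1 moved the other way. In A375 SORT1 was 189.8 and 190.2 CPM on drug and 45.2 and 43.7 at 48 h, and in 451Lu it was 379 and 404 on drug and 130.5 and 159.5 at 120 h, with no overlap in either line. SORT1, the co-receptor of NGFR for neurotrophin precursors, fell 4.38-fold at 48 h in A375 (log2 -2.13 ± 0.06 SE, adjusted p = 7.46e-27) and 2.73-fold at 120 h in 451Lu (log2 -1.45 ± 0.08 SE, adjusted p = 1.18e-10). Over the neurotrophin list 2 of 6 tested genes rose and 1 fell at 48 h in A375 (36.6% and 36% of all genes, median 0.06, against 0.00). At 120 h in 451Lu 2 of 3 rose and 1 fell (37.3% and 36.6% of all genes, median 0.35, against 0.00).

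**Figure D4:**
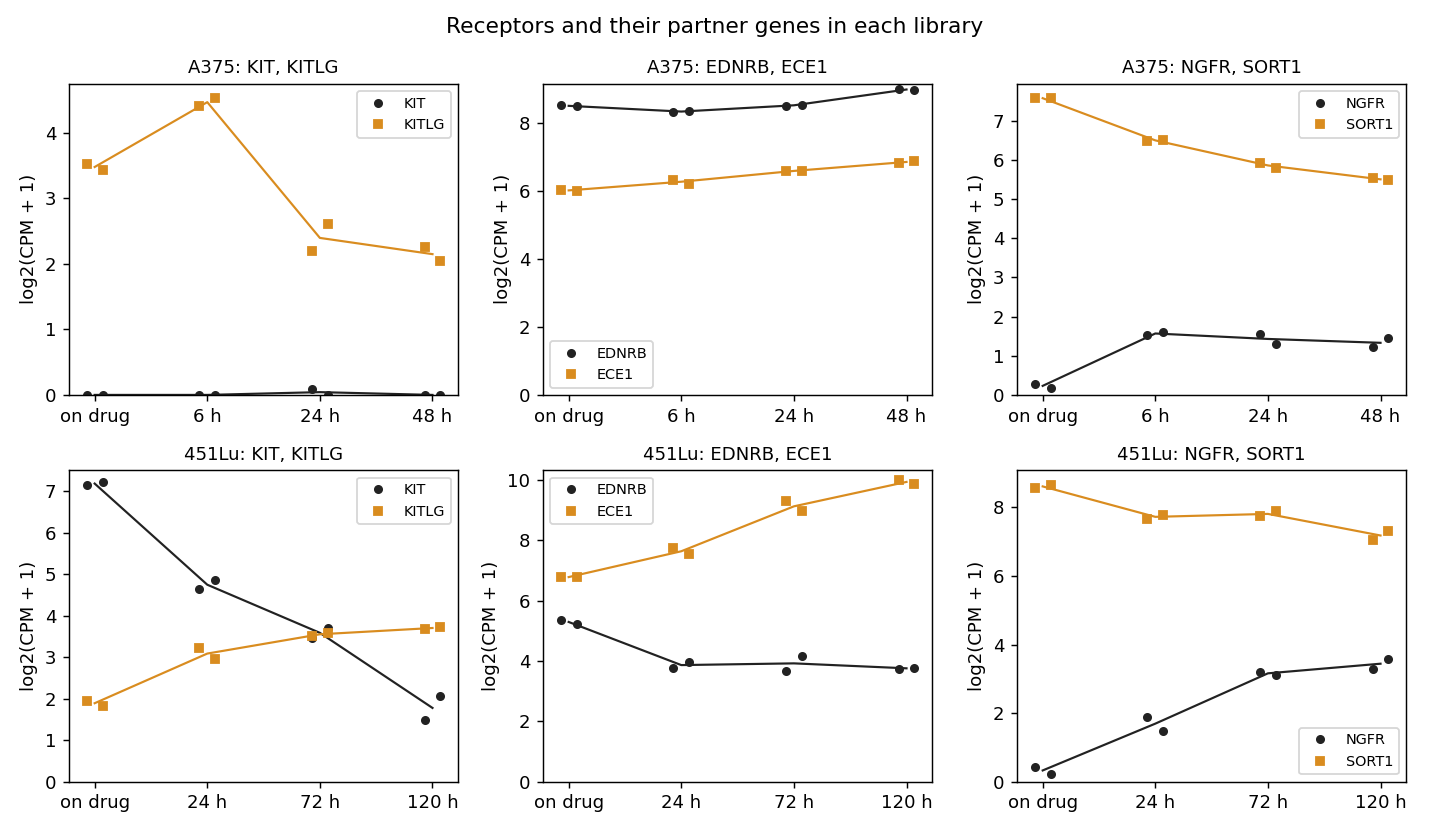
Level of each receptor and its partner genes in each library, as log2(CPM + 1), against the time off drug, in A375 (upper row) and 451Lu (lower row), with points for the 2 libraries of a group and lines through their means. KITLG ends lower in A375 and higher in 451Lu, where KIT falls, ECE1 rises in both lines, and SORT1 falls while NGFR rises.

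Of 26 other crest and melanoblast factors, 24 have a row. In A375 at 48 h 6 of 20 tested rose and 10 fell (36.6% and 36% of all genes, median log2 -0.37, against 0.00). In 451Lu at 120 h 7 of 17 rose and 7 fell (37.3% and 36.6% of all genes, median 0.01, against 0.00). MITF fell 9.28-fold in A375 (log2 -3.21 ± 0.06 SE) and 2.1-fold in 451Lu (log2 -1.07 ± 0.06 SE). In 451Lu its level was 623 and 613 CPM on drug, 141 and 155 at 24 h, 287 and 296 at 72 h, and 285 and 309 at 120 h, lowest at 24 h like that of SOX10. SNAI2, a crest migration factor, fell 6.00-fold in A375 and 2.72-fold in 451Lu. SOX6 fell 7.85-fold in A375, and RXRG, a retinoid receptor used as a marker of crest-like melanoma cells, fell 11.2-fold in 451Lu. The mean level of RXRG in A375 was 52.1 CPM on drug, 16.9 at 6 h, 31.05 at 24 h and 58 at 48 h. SNAI1 rose 6.72-fold and SOX8, a close relative of SOX10 and SOX9, rose 2.21-fold in A375. TFAP2C, a paralogue of TFAP2A, was 0.613 and 0.465 CPM on drug in 451Lu and 19.6 and 18.3 CPM at 120 h. It had 17 counts in all on drug and passed the filter on low counts only through libraries off drug, so a difference was built into its selection and its test is not given.

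SOX10 targets and glial genes split in both lines. In A375 8 of 15 tested rose and 7 fell at 48 h (36.6% and 36% of all genes, median 0.18, against 0.00). In 451Lu 7 of 15 rose and 6 fell at 120 h (37.3% and 36.6% of all genes, median -0.02, against 0.00). In 451Lu 1 of these genes, AQP1, named here for its 0 counts on drug, was at least 23.2-fold higher at 120 h, and the median is the same with it at that bound. The pigment enzyme gene DCT, which is also among the melanocyte markers, fell 32.1-fold in A375 and 583-fold in 451Lu, where 5 counts remained. CDH19, a cadherin of glial precursors, rose 2.13-fold in A375 (log2 1.09 ± 0.07 SE) and 9.22-fold in 451Lu (log2 3.20 ± 0.10 SE). EGR2, a factor of myelinating glia, rose 7.64-fold and 24.7-fold, and the adhesion gene L1CAM rose 9.51-fold and 1.72-fold. CDH19 and EGR2 thus rose in 451Lu while SOX10 was 2.23-fold below its on-drug level.

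Partners of LEF1 and genes that WNT signals act on moved both ways in both lines. At 24 h, the time the lines share, 7 of 15 tested rose and 5 fell in A375 (36.2% and 36.3% of all genes), and 6 of 14 rose and 3 fell in 451Lu (29.2% and 24.9% of all genes). At the last times, which differ, 5 of 15 rose and 6 fell in A375 at 48 h (36.6% and 36% of all genes, median -0.02, against 0.00), and 10 of 14 rose and 2 fell in 451Lu at 120 h (37.3% and 36.6% of all genes, median 1.01, against 0.00). TCF7, a LEF1 paralogue, was 2.45 and 3.31 CPM on drug in 451Lu and 28.9 and 24.2 CPM at 120 h, a rise of 9.03-fold (log2 3.17 ± 0.17 SE, adjusted p = 3.61e-11). TCF7L2, another paralogue, rose 2.45-fold in 451Lu and 2.86-fold in A375. The corepressor gene TLE3 rose 3.01-fold in A375, and CTNNB1, which encodes beta-catenin, fell 1.29-fold in 451Lu. Among WNT inhibitors, APCDD1 fell 10.4-fold in A375 at 48 h, and DKK1 had 2 counts on drug and 74 at 48 h, a ratio of 54.3 (exact 95% counting interval 14.5 to 457.1). Whether the counts of this list differ between the lines was not tested.

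All 7 melanocyte markers fell at 48 h in A375 (36% of all genes fell, median -3.21, against 0.00). In 451Lu 6 of 7 fell at 120 h (36.6% of all genes fell, median -4.47, against 0.00). MLANA, a melanosome protein gene, fell 22.1-fold and 145-fold. Of the markers of other cell types 3 of 5 tested rose and 2 fell at 48 h in A375 (36.6% and 36% of all genes, median 1.31, against 0.00). At 120 h in 451Lu 4 of 5 rose and 1 fell (37.3% and 36.6% of all genes, median 1.35, against 0.00). PECAM1, an endothelial adhesion gene, had 0 counts on drug in 451Lu and 2593 at 120 h, which is at least 1250-fold higher against a floor of 3 counts over the group, and the median is the same with PECAM1 at that bound. KRT18 rose 2.65-fold and 2.55-fold. The 2 fibroblast markers, both matrix genes, moved in opposite directions. LUM fell 8.20-fold and 24.3-fold, and COL1A1 rose 3.49-fold (log2 1.80 ± 0.41 SE) and 24.4-fold (log2 4.61 ± 0.43 SE).

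The genes most like a member in pattern were ranked by Pearson's r of log2(CPM + 1) over the 8 libraries of a line, among all genes tested there, for members that varied at least 2-fold. These 8 libraries are 4 groups of 2, so a high r mostly restates the same group differences. For SOX10 in 451Lu they were IL16 (r = 0.997), ZFAND5 (0.996) and GUCD1 (0.993), and IL16 went from 122 CPM on drug to 23.0 at 24 h and 44.4 at 120 h. For KIT they were the mitochondrial genes ATP5C1 (0.999), ATP5A1 (0.997) and ETFA (0.996), whose levels fell less, ATP5C1 from 184 to 75.8 CPM. For EDNRB in 451Lu they were TRPM1 (0.996), CAP2 (0.995) and CRTAP (0.994), and TRPM1, a melanocyte channel gene, went from 80.6 CPM on drug to 0.638 at 24 h. For LEF1 they were BBX (0.998), EHBP1 (0.998) and GNB1 (0.996), and for SOX9 CSF2 (0.997), DCN (0.996) and CXCL3 (0.992), of which CXCL3 went from 0.0581 to 21.0 CPM. NGFR was most like ST6GALNAC6, CRADD and MGLL in 451Lu (0.997 each) and GNL1 (0.997), LRRC8E (0.995) and KLF16 (0.995) in A375. TFAP2A in A375 was most like PCDHB5 (0.997), PSAT1 (0.997) and FAM210B (0.996).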

How the data were processed

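RNA-seq was read for 16 libraries, 2 in each of 8 groups, with groups and times taken from the labels. Per the submitters' processing notes, the authors used TopHat2 2.1.0, Bowtie 1.0.0 and the build GRCh38. Values in the deposited table are raw read counts for each gene. Counter, annotation release and strand setting were not given in the sources used here. Gene positions are those of the table, and strands and exon lengths are from GENCODE release 29. Members and gene lists were chosen with earlier results of these data known. Named genes are the 10 members, the 3 genes with the smallest p in each direction at the last time of each other list, the 3 genes most like a member, and overlapping genes. A few genes that this rule names are not reported here.

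Each line was fitted apart (edgeR 4.0.16, R 4.3.3) with 4 groups, TMM scaling, filterByExpr (minimum count 10, total 15) and the quasi-likelihood test, which leaves 4 residual degrees of freedom among libraries, and comparisons of the lines used a joint fit with 8. P-values were adjusted by Benjamini and Hochberg's method across every gene tested in a comparison. SE is the absolute log2 fold change over the square root of F. Depths of 9714190 to 16691725 counts put the floor of 3 counts over a group at 0.089 to 0.159 CPM, and neither floors nor intervals include more than counting error. The pseudocount is 1 in log2(CPM + 1). The libraries of a group differed beyond sampling noise (chi-square per degree of freedom 1.27 to 5.61). The fitting was tested on simulated data. Alternatives were RLE scaling, no filter on low counts, DESeq2 1.42.0, a replicate block, a test against a fold of 1.5 (glmTreat), the joint fit and leaving out each library in turn.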

Additional observations from a re-analysis of the deposited data

Results flagged for a closer look

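The change at 24 h differed between the lines, by the interaction term of the joint fit, for 3 members. For SOX10 the 24 h change in 451Lu minus that in A375 was -2.09 on the log2 scale, with both 451Lu libraries at 24 h below both on drug and overlapping libraries in A375. For EDNRB it was -1.51, again with no overlap in 451Lu and overlap in A375. For TFAP2A it was 0.69, with a fall in both lines and no overlap with the on-drug libraries in either. The lines were on different drug treatments, dabrafenib with trametinib in A375 and dabrafenib alone in 451Lu, so line and treatment cannot be told apart.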

How the results depend on the processing

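Over 86 results for single members and 875 alternative values, 779 kept their direction and their side of the threshold, 64 lost the call, 7 gained one and 25 changed sign. These values include NGFR and SOX9 against on drug, and SOX9 at 72 against 24 h, where a difference was built into the selection. Of 700 such values for named genes of the other lists, 683 kept both and 17 lost the call. Against a fold of 1.5, the genes called numbered 4566, 4257 and 4525 in A375 at 6, 24 and 48 h against on drug, 4081 for 24 against 6 h and 215 for 48 against 24 h. In 451Lu they numbered 2373, 4387 and 5688 at 24, 72 and 120 h, 1768 for 72 against 24 h and 550 for 120 against 72 h, with 7054 between the lines on drug and 2722 for the line difference at 24 h. The members called then were 2 at 6 h and 2 at 48 h in A375, 0 in both steps between A375 times, 3 from 24 to 72 h and 1 from 72 to 120 h in 451Lu. DESeq2 called 2427 genes for A375 48 against 24 h. Leaving out 1 library in turn gave 2851 to 4052 genes for 451Lu 120 against 72 h, the lowest without the second 72 h library, and 1 to 3 members for A375 48 against 24 h.

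Every sign change was of a difference that was not called. Against on drug at 24 h in A375, PAX3 became 0.000826 and EDNRB 7.18e-06 with RLE scaling, EDNRB 2.11e-05 with DESeq2, and PAX3 0.0149 and EDNRB 0.0154 in the joint fit. In that fit PAX3 also became 0.00338 for 451Lu 120 against 72 h. Leaving out 1 library in turn gave, at 24 h in A375, SOX10 -0.0842 to 0.0151, PAX3 -0.105 to 0.0588 and EDNRB -0.0366 to 0.012. For A375 48 against 24 h it gave TFAP2A -0.182 to 0.0573 and NGFR -0.393 to 0.043. For 451Lu 72 against 24 h it gave TFAP2A -0.00742 to 0.102 and EDNRB -0.219 to 0.285, and for 120 against 72 h PAX3 -0.117 to 0.0663, TFAP2A -0.0782 to 0.0207 and EDNRB -0.448 to 0.0461. NGFR ran from -0.0226 to 0.908 between the lines on drug and from -0.5 to 0.432 for the line difference at 24 h.

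The replicate numbers share no stated origin, and the differences between the 2 libraries of a group correlated between groups at -0.039 to 0.023 in A375 and -0.019 to 0.137 in 451Lu. With the replicate block the genes called were 10473, 10340 and 10373 in A375 at 6, 24 and 48 h and 7840, 9632 and 10435 in 451Lu at 24, 72 and 120 h. Of the members, PAX3 lost its call in A375 at 6 h (adjusted p = 0.0594) and gained one in 451Lu at 24 h (adjusted p = 0.0327). Over members and pairs of groups in a line, 84 of 120 pairs did not overlap, against 86 with RLE scaling and 83 with raw totals. The share over all genes was not computed, and the pairs include members with very few counts. These numbers therefore show only how far the scaling moved them. Depth limits SOX2, FOXD3, SOX9 and NGFR, and KIT in A375.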
